A study of Mus musculus with 8 samples.

Results

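Of the 52325 genes in the deposited count table, 9 genes of retinoid synthesis, binding and response were examined, namely Rbp4, Stra6, Aldh1a1, Aldh1a2, Aldh1a3, Crabp2, Rarb, Rarg and Cyp26a1. They were chosen by symbol, matched through the Ensembl identifier of each row, and all 9 were among the 18174 genes that passed the filter on low counts. The question they address is whether retinoid supply or response differed between wild-type (WT) endometrium and endometrium in which simple columnar epithelium is replaced in places by squamous cells.

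Vitamin A reaches cells as retinol bound to retinol binding protein 4, enters through the membrane receptor STRA6, and is oxidized first to retinaldehyde and then, by the retinaldehyde dehydrogenases of the ALDH1A family, to retinoic acid. Retinoic acid is carried to the nucleus by CRABP2, acts through retinoic acid receptors (RARs) that pair with retinoid X receptors (RXRs) on DNA, and is broken down by CYP26 enzymes. Lack of vitamin A is a long-known cause of squamous metaplasia in the uterus and other lined organs, and retinoids hold back squamous differentiation in cultured keratinocytes.

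The libraries came from endometrium cut by laser from frozen uterine sections of 4 WT and 4 Thra1PV/+ female mice, matched at metestrus by synchronization and impedance readings. Thra1PV/+ mice carry, in all tissues and on 1 allele, the PV frameshift mutation of the thyroid hormone receptor α1, a dominant negative receptor. The age of the mice behind these libraries is not given in the sources used here, nor is it said which animals they came from, so the tests measure the spread between these libraries. No gene was deleted, and counts per gene do not separate the mutant allele from the normal one, so they give no check of genotype.

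Library totals ran from 48791602 to 59818887 estimated counts, so that 3 counts, taken as the floor, stood for 0.0525 to 0.0628 CPM (counts scaled to library size, after TMM normalization). Correlations of log2 CPM between libraries of the same genotype were 0.901 to 0.974. The captured tissue held simple epithelium in both genotypes, at a summed 2152 to 5298 CPM over 8 markers in Thra1PV/+ libraries and 2188 to 5597 CPM in WT libraries. Summed over 6 squamous markers, Thra1PV/+ libraries held 2225 to 3720 CPM and WT libraries 1.13 to 42.3 CPM, and 5 of the 6 were called higher. Library 1 of each genotype stood apart. WT library 1 held 12639.7 CPM of 6 smooth muscle markers against 124.6 to 1094 CPM in the other 7 libraries. Thra1PV/+ library 1 held 3298 CPM of 8 endometrial stroma markers against 384 to 1008 CPM in the other 3 mutant libraries, and WT libraries held 1256 to 3807 CPM. Of the other marker lists, 1 of 4 genes of ciliated oviduct epithelium was called lower. None of the tested gland, stroma, smooth muscle, mesothelium, endothelium, leukocyte or blood markers was called. Among these, edgeR put 1 of 8 stroma, 6 of 6 smooth muscle, 3 of 7 leukocyte and 2 of 5 blood markers under an unadjusted p of 0.05. Only 3 of 7 gland and 2 of 5 mesothelium markers passed the filter on low counts, and the rest of these lists was not tested. Of all tested genes, 0.990% were called by edgeR and 9.77% had an unadjusted p under 0.05. In bulk captures of this kind, a lower value from fewer cells of a type and a lower value from less RNA per cell cannot be told apart.

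None of the 9 retinoid genes was called by edgeR's quasi-likelihood test under a rule that asks for a difference of at least 2-fold with a Benjamini-Hochberg adjusted p no greater than 0.1, which called 180 of the 18174 tested genes, or 0.990%. At an unadjusted p under 0.05 by edgeR, 4 of the 9 passed, 3 higher and 1 lower in Thra1PV/+, against 9.77% of all tested genes. The same 4 genes had no overlap between the 4 mutant and the 4 WT libraries: Stra6, Crabp2 and Rarg lay higher in every Thra1PV/+ library, against 3.55% of all genes, and Rbp4 lay lower, against 2.49%. In either direction 6.04% of genes had no overlap. DESeq2, which called 3.58% of its 22073 genes by the same rule, called Rbp4 and Stra6. The limma voom fit with sample quality weights, which called 311 of the 18174 genes, called Rbp4 and Crabp2. The median log2 fold change was 0.64 over the 9 genes and -0.05 over all tested genes, and 6 of the 9 values were above 0. For each gene below, the exact two-sided permutation test over the 70 arrangements of 4 against 4 libraries cannot give a p below 0.0286.

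**Figure D1:**
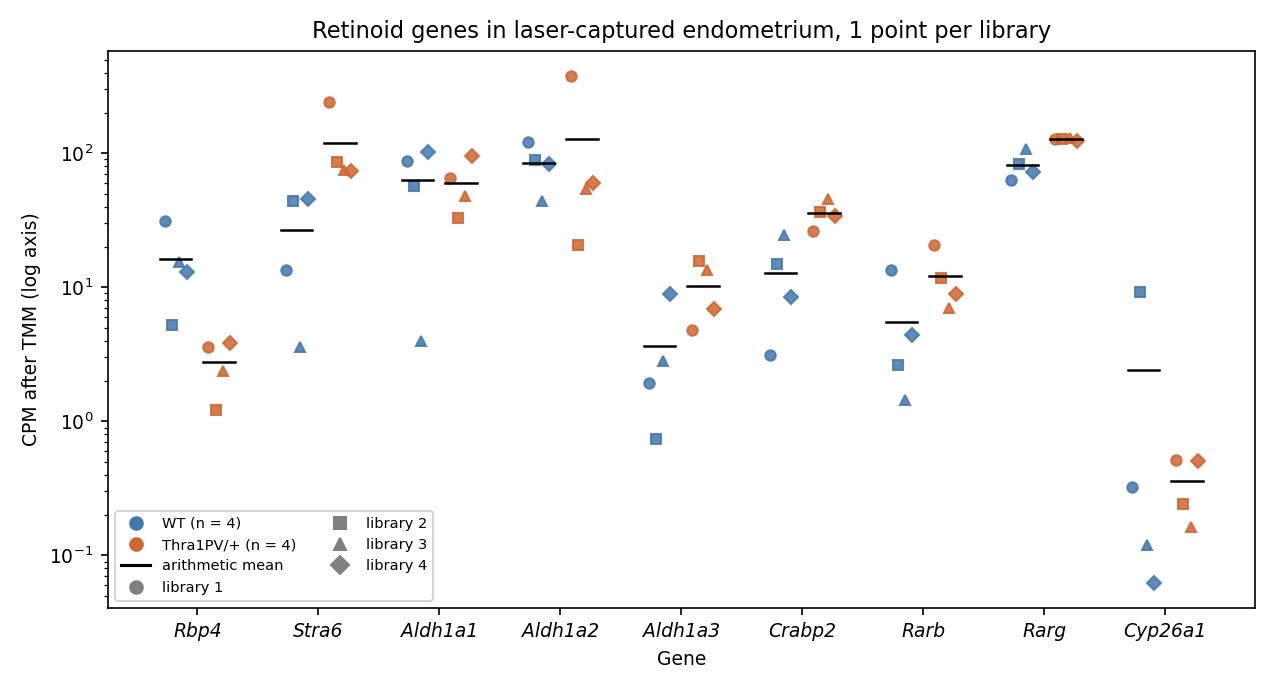
CPM after TMM normalization (log axis) of the 9 retinoid genes in each of the 8 libraries, WT in blue and Thra1PV/+ in orange, with marker shape for the library number and a bar at the arithmetic mean of 4 libraries. Rbp4 lies lower and Stra6, Crabp2 and Rarg lie higher in every mutant library, while the other 5 genes overlap, with Cyp26a1 high in WT library 2 alone.

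The largest fold difference without overlap among the 9 was in Rbp4, the plasma carrier of retinol, which is made mainly by the liver and also in other tissues (ENSMUSG00000024990.12, chr19:38116629-38125281, minus strand, GRCm38 as are all positions here). Rbp4 stood at 31.1, 5.20, 15.5 and 12.96 CPM in WT libraries 1 to 4 and at 3.56, 1.22, 2.39 and 3.85 CPM in Thra1PV/+ libraries 1 to 4. The highest mutant library was below the lowest WT library, and WT library 1 was the highest of all. Means were 16.2 ± 10.9 CPM (SD, n = 4) in WT and 2.76 ± 1.205 CPM in Thra1PV/+, a log2 fold change of -2.55 with a standard error of 0.58 and a 95% interval of -3.69 to -1.41. This and the other 95% intervals given here are approximate and too narrow, since they take the multiplier of a normal distribution. The adjusted p of edgeR was 0.146, and the exact permutation p was 0.0286. With 1 library left out at a time, the log2 fold change stayed between -2.82 and -1.99, and edgeR called Rbp4 only without WT library 2, at an adjusted p of 0.0724. Without both library 1s, a choice made after seeing the data, it was -2.14 with an adjusted p of 0.258.

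Marker levels of other cell types are given beside Rbp4. Thra1PV/+ libraries 1 to 4 had stromal marker sums of 3298, 384, 797 and 1008 CPM and Rbp4 at 3.56, 1.22, 2.39 and 3.85 CPM. WT libraries 1 to 4 had sums of 3807, 3629, 1256 and 1430 CPM and Rbp4 at 31.1, 5.20, 15.5 and 12.96 CPM. WT library 1, with the smooth muscle signal, held the most Rbp4. Within genotypes, Rbp4 ordered the libraries as the summed smooth muscle markers did in 10 of 12 pairs, 6 of 6 in Thra1PV/+ and 4 of 6 in WT, and as the stromal markers did in 8 of 12. None of the 6 smooth muscle markers was called by edgeR, though all 6 were lower in Thra1PV/+ at an unadjusted p under 0.05, and the part of stroma and smooth muscle in the Rbp4 difference was not tested.

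Stra6, the cell surface receptor through which retinol leaves its plasma carrier and enters cells, lay the other way (ENSMUSG00000032327.14, chr9:58063788-58153996, plus strand). Its WT values were 13.5, 44.4, 3.601 and 45.4 CPM, and its Thra1PV/+ values were 240.5, 85.5, 75.6 and 73.2 CPM. Mutant library 1 was far above the other 3, which lay close together, and WT libraries spread widely without reaching them. The means of 26.7 ± 21.4 and 119 ± 81.4 CPM differed 4.44-fold, with a log2 fold change of 2.15, a standard error of 0.78, a 95% interval of 0.63 to 3.67, an edgeR adjusted p of 0.404 and an exact permutation p of 0.0286. Left-out libraries moved the log2 fold change between 1.597, without Thra1PV/+ library 1, and 2.53, and without both library 1s it was 1.36 with an adjusted p of 0.605. Stra6 shares its position with Ccdc33 on the opposite strand and Gm16131 on the same strand, so part of its signal could belong to these neighbours. The libraries were made with a stranded mRNA kit, but whether the quantification used strand is not given in the sources used here.

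The 3 retinaldehyde dehydrogenases, which carry out the last and irreversible step to retinoic acid, each overlapped between genotypes. Aldh1a1 (ENSMUSG00000053279.7, chr19:20492715-20643465, plus strand) stood at 87.9, 56.8, 3.999 and 103 CPM in WT and 64.9, 32.9, 47.9 and 96.1 CPM in Thra1PV/+. Apart from the low WT library 3, the ranges were alike, and the log2 fold change was -0.06 with a 95% interval of -1.56 to 1.45 (edgeR adjusted p = 0.989). That interval still holds differences of more than 2-fold in either direction. Its neighbour Aldh1a7, a close paralog whose reads could be shared with it, had a log2 fold change of 0.32 (edgeR adjusted p = 0.947), and counting both genes together gave -0.03 for the pair.

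Aldh1a2 (ENSMUSG00000013584.5, chr9:71215789-71296243, plus strand), the isozyme known for retinoic acid synthesis in mesenchyme and stroma, had WT values of 121, 88.9, 44.3 and 82.6 CPM and Thra1PV/+ values of 377, 20.8, 53.8 and 59.75 CPM. A single mutant library carried the highest value and another the lowest. The log2 fold change was 0.60 with a standard error of 0.81 (edgeR adjusted p = 0.871), and without Thra1PV/+ library 1 it turned to -0.87 (adjusted p = 0.484).

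Aldh1a3 (ENSMUSG00000015134.15, chr7:66390890-66427517, minus strand), the least abundant of the 3 and better known from epithelia, stood at 1.95, 0.740, 2.82 and 8.98 CPM in WT and 4.77, 15.6, 13.4 and 6.95 CPM in Thra1PV/+. WT library 4 reached into the mutant range, and the other 3 WT libraries lay below it. The log2 fold change of 1.49 had a standard error of 0.74, an edgeR adjusted p of 0.574 and an exact permutation p of 0.0857. It was 2.47 without WT library 4, at an adjusted p of 0.234.

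Per gene length, from the deposited TPM values, Aldh1a2 and Aldh1a1 made up nearly all of the family. In WT the shares of the summed TPM were 59.84% ± 18.1 for Aldh1a2, 37.8% ± 19.2 for Aldh1a1 and 2.39% ± 2.23 for Aldh1a3 (SD, n = 4), and in Thra1PV/+ they were 49.2% ± 24.4, 43.8% ± 20.3 and 7.06% ± 7.27. Aldh1a3 reached 16.97% in Thra1PV/+ library 2 and 0.575% in library 1, where Aldh1a2 took 84.4%. None of the 3 shares differed by the exact permutation test, at p = 0.514, 0.571 and 0.343 in the order above and an adjusted p of 0.571 for each. The summed TPM of the 3 isozymes was 87.5 ± 41.6 in WT and 126 ± 119 in Thra1PV/+ (exact permutation p = 0.8).

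**Figure D2:**
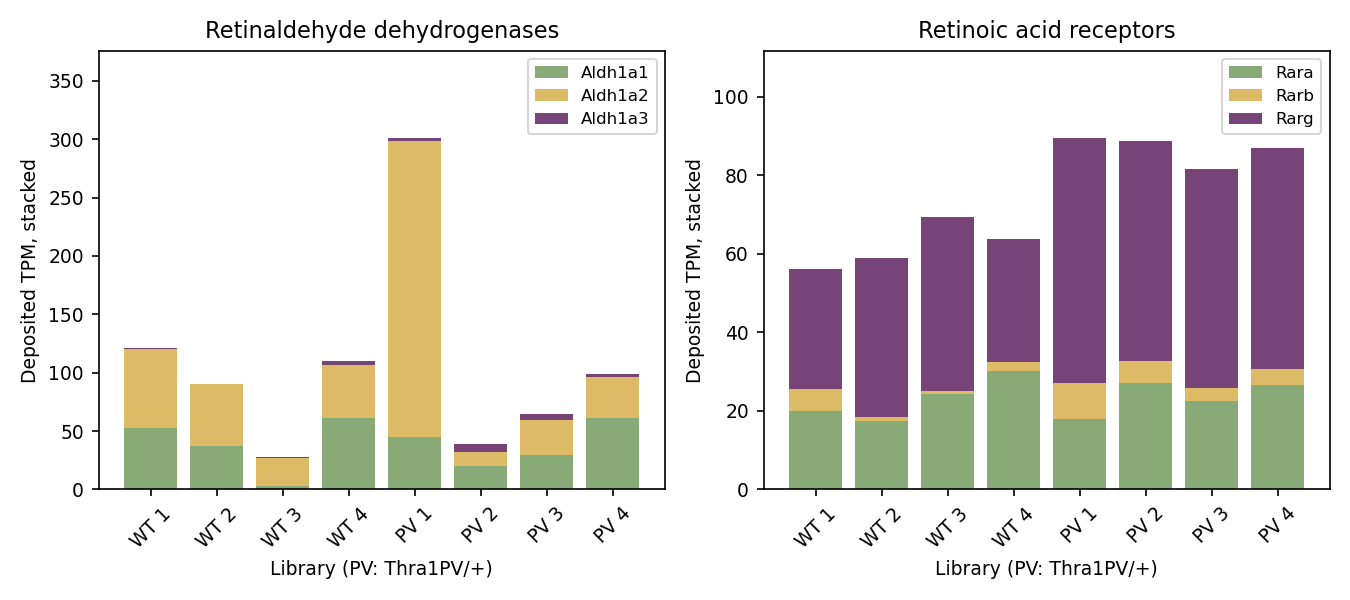
Deposited TPM, stacked by gene, in each library for the 3 retinaldehyde dehydrogenases (left) and the 3 retinoic acid receptors (right), with Thra1PV/+ libraries written PV. Thra1PV/+ library 1 stands out through Aldh1a2 on the left, and on the right each mutant bar, 81.5 to 89.4 TPM, is taller than every WT bar, 56.2 to 69.5 TPM.

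Crabp2 encodes the cytosolic protein that binds retinoic acid and hands it to the receptors, and is abundant in skin (ENSMUSG00000004885.5, chr3:87948666-87953376, plus strand). WT libraries held 3.15, 14.9, 24.4 and 8.46 CPM and Thra1PV/+ libraries 26.1, 36.5, 45.7 and 34.2 CPM. The genotypes did not overlap, although WT library 3 came close to Thra1PV/+ library 1. Means of 12.7 ± 9.16 and 35.7 ± 8.07 CPM gave a log2 fold change of 1.49 with a standard error of 0.54 and a 95% interval of 0.43 to 2.54 (edgeR adjusted p = 0.405, exact permutation p = 0.0286). Leaving out 1 library gave 1.21 to 2.04.

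Crabp2 ordered the libraries exactly as the summed squamous markers did. Within WT, library 1 was the lowest in both, followed by libraries 4 and 2, and library 3 was the highest, with a squamous sum of 42.3 CPM. Within Thra1PV/+, library 1 was likewise the lowest in both and library 3 the highest, with a sum of 3720 CPM. All 12 pairs of libraries of a genotype were thus in the same order, against 1 to 10 of 12 for the other 8 retinoid genes, with Rarg at 10. Crabp2 also matched the order of the mesothelium markers in 11 of 12 pairs, and that of the simple epithelium and gland markers in 10 each. By mean CPM, Krt20 was the largest part of the mesothelium sum, at 13.2 in Thra1PV/+ and 6.84 in WT. Cxcl17 was the largest part of the gland sum, at 156 and 362, so these sums are weak measures of those cell types. Aldh1a2 in turn matched the order of the summed stromal markers, and that of the blood markers, in 12 of 12 pairs, and Crabp2 in 2 of 12. For Aldh1a2 the endothelium markers matched in 11 of 12 and the smooth muscle markers in 10. These orders were compared after the values had been seen, over 10 marker lists and 9 genes measured in the same libraries, and are given as a description. The part that the amounts of squamous and stromal cells had in the difference between genotypes was not tested.

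**Figure D3:**
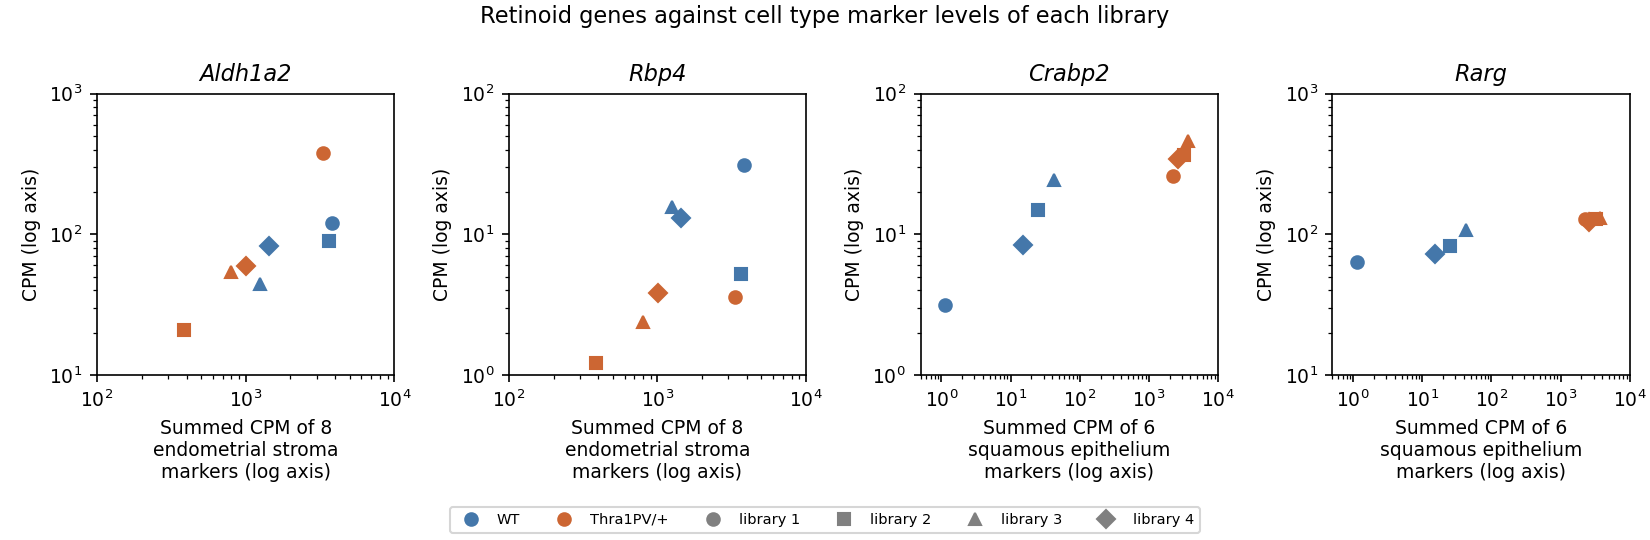
CPM of Aldh1a2 and Rbp4 against the summed CPM of 8 endometrial stroma markers, and of Crabp2 and Rarg against the summed CPM of 6 squamous epithelium markers, both axes on a log scale, 1 point per library. Crabp2 climbs with the squamous markers within each genotype, and Aldh1a2 with the stromal markers.

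Rarg encodes the RAR isotype that predominates in skin (ENSMUSG00000001288.14, chr15:102234938-102257517, minus strand). It stood at 63.2, 83.1, 107 and 73.0 CPM in WT and 129, 128, 130.2 and 123 CPM in Thra1PV/+. The 4 mutant values lay close together and above every WT value. Means were 81.6 ± 18.8 and 127 ± 3.20 CPM, 1.56-fold apart, with a log2 fold change of 0.64, a standard error of 0.17 and a 95% interval of 0.31 to 0.97 (edgeR adjusted p = 0.223, exact permutation p = 0.0286). The adjusted p fell to 0.0517 without WT library 3 and rose as high as 0.555 without Thra1PV/+ library 3, with a log2 fold change of 0.58 to 0.82 over the 8 fits. A difference of this size is below the 2-fold threshold whatever its p.

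Rarb, the isotype whose own gene is a classical target of retinoic acid (ENSMUSG00000017491.9, chr14:16430839-16819156, minus strand), had WT values of 13.5, 2.62, 1.45 and 4.395 CPM and Thra1PV/+ values of 20.8, 11.7, 6.99 and 8.93 CPM. Library 1 was the highest of each genotype, and WT library 1 lay inside the mutant range. The log2 fold change of 1.15 had a standard error of 0.68 and a 95% interval of -0.19 to 2.48 (edgeR adjusted p = 0.648, exact permutation p = 0.114). It was 2.14 without WT library 1 and 0.79 without Thra1PV/+ library 1. Rarb overlaps Top2b and Gm48162, both on the opposite strand.

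Rarg made up 59.1% ± 8.81 of the summed TPM of Rara, Rarb and Rarg in WT and 66.6% ± 3.05 in Thra1PV/+, and Rarb 4.12% ± 4.09 and 6.24% ± 2.81. Rara took the rest, 36.8% ± 7.56 and 27.2% ± 4.96. No share differed past 0.05 by the exact permutation test, at p = 0.2, 0.4 and 0.0857 and adjusted p = 0.3, 0.4 and 0.257. The summed TPM of the 3 receptors was 62.1 ± 5.83 in WT and 86.7 ± 3.59 in Thra1PV/+ with no overlap (exact permutation p = 0.0286, adjusted over both family sums 0.0571).

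Cyp26a1, the enzyme that breaks down retinoic acid and is itself strongly induced by it, was near the floor in most libraries (ENSMUSG00000024987.5, chr19:37697798-37701536, plus strand). It stood at 0.324, 9.24, 0.119 and 0.0628 CPM in WT and 0.514, 0.244, 0.163 and 0.508 CPM in Thra1PV/+, which is 3 to 512 counts and 8 to 29 counts. WT library 2 held nearly all of the WT signal, and the other 3 WT libraries were at or below the upper mutant values. The log2 fold change of -2.76 had a standard error of 1.49 (edgeR adjusted p = 0.611, exact permutation p = 0.914), and without WT library 2 it turned to 1.09 (adjusted p = 0.763).

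**Figure D4:**
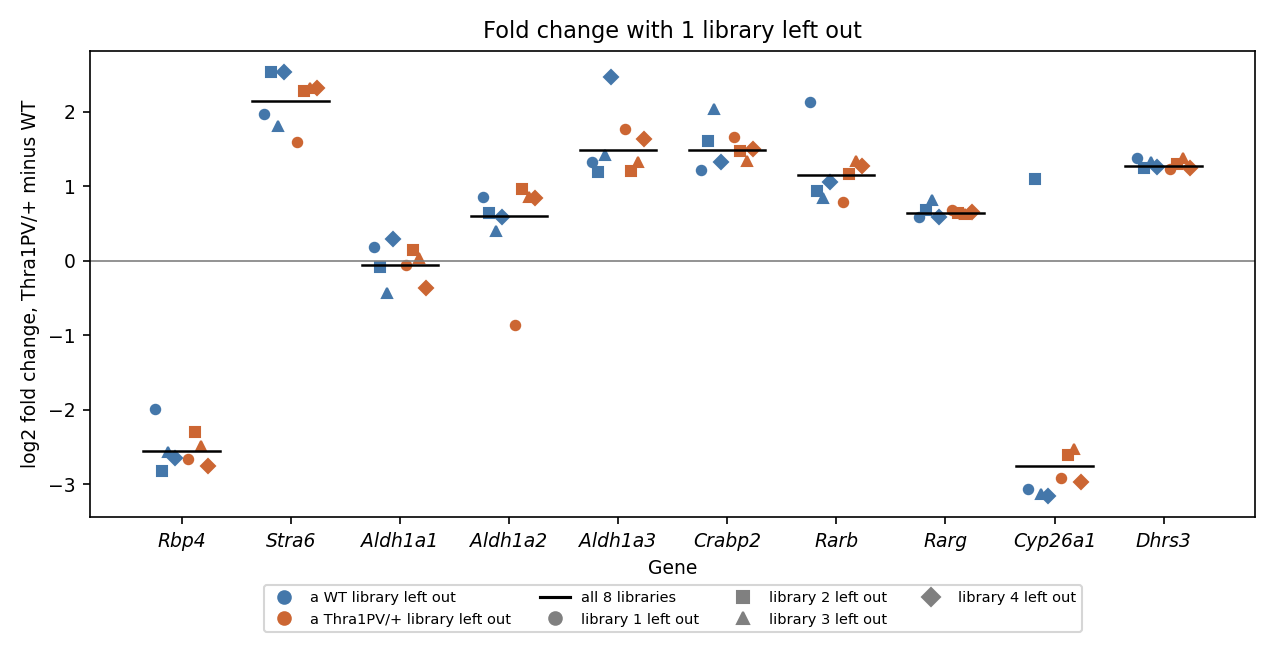
Log2 fold change, Thra1PV/+ minus WT, of the 9 retinoid genes and Dhrs3 with each library left out in turn (blue, a WT library; orange, a Thra1PV/+ library; marker shape, its number) and with all 8 libraries (bar). Aldh1a2 changes sign without Thra1PV/+ library 1, Cyp26a1 changes sign without WT library 2, and Dhrs3 stays between 1.23 and 1.38.

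Of the 9 genes, Rarb and Cyp26a1 had a retinoic acid response element in the promoter windows examined. The element searched for was a direct repeat of 6-base half-sites spaced by 5 bases, the spacing RAR and RXR pairs prefer, where each half-site was AGGTCA, the variants AGTTCA and also GGGTCA with 1 base changed, or else GGTTCA with both changes, on either strand. It was found in 32 of 32851 RefSeq windows (GRCm38.p6) of 250 bases before and 50 bases after a gene start, or 0.0974%. Windows were found for 7 of the 9 genes, 13 in all, and for neither Aldh1a3 nor Crabp2. The stretches of 120 bases upstream of the Rarb start (chr14:16575477-16575596, minus strand) and of the Cyp26a1 start (chr19:37697688-37697807, plus strand) are shown because they hold these elements. They are written 5′ to 3′ on the strand of the gene, with the half-sites in capitals.
Rarb: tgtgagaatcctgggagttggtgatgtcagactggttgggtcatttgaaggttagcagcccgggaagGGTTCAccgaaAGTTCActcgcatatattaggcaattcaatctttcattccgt
Cyp26a1: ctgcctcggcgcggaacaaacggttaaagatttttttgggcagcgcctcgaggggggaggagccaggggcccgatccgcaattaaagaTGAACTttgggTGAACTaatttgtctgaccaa

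The Rarb element lies 53 to 37 bases upstream of that start on the strand of the gene, and the start itself lies inside the longer Rarb gene of the annotation. The Cyp26a1 element lies 32 to 16 bases upstream on the opposite strand, on which it reads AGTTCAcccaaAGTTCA. Both genes with the element overlapped between the genotypes, with log2 fold changes of 1.15 and -2.76. A match of letters says nothing of whether a receptor was bound there.

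Between genes, levels were compared as deposited TPM, which are per length. In WT the order of mean TPM was Aldh1a2 (47.2 ± 18.3), Aldh1a1 (38.6 ± 25.8), Rarg (36.8 ± 6.79), Rbp4 (25.3 ± 17.6), Crabp2 (16.6 ± 11.5), Stra6 (13.2 ± 10.04), Rarb (2.43 ± 2.24), Cyp26a1 (2.29 ± 4.24) and Aldh1a3 (1.5996 ± 1.54). Each neighbour in this order overlapped the next over the 4 libraries. In Thra1PV/+ the order was Aldh1a2 (82.6 ± 114), Stra6 (61.2 ± 48.6), Rarg (57.7 ± 3.14), Crabp2 (48.4 ± 9.21), Aldh1a1 (39.1 ± 18.1), Rarb (5.47 ± 2.62), Rbp4 (4.30 ± 1.71), Aldh1a3 (4.05 ± 2.19) and Cyp26a1 (0.320 ± 0.146). Here the neighbours Aldh1a1 and Rarb, and Aldh1a3 and Cyp26a1, did not overlap, and all others did.

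Beyond the 9 genes, a list of 26 further genes of the pathway had 22 that passed the filter. Of these edgeR called 1, against 0.990% of all tested genes. That gene, Dhrs3, encodes the reductase that turns retinaldehyde back to retinol and is known to be induced by retinoic acid. It rose from 124, 97.4, 117 and 106 CPM in WT to 319, 259.7, 213 and 287 CPM in Thra1PV/+. Every mutant library lay well above every WT library, at 2.42 times the mean level. The log2 fold change was 1.28 with a standard error of 0.16 and a 95% interval of 0.96 to 1.59 (edgeR adjusted p = 0.0148, exact permutation p = 0.0286). Dhrs3 was called with each of the 8 libraries left out, at an adjusted p of 0.0221 to 0.0631.

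The other 21 tested pathway genes were not called, and the median log2 fold change of the 22 was 0.11. For the counts by role that follow, edgeR called 0.990% of all tested genes and put 9.77% under an unadjusted p of 0.05. Among receptors, Rxra, the partner of the RARs, did not overlap between genotypes, at 77.7 to 112 CPM in WT and 113 to 146 CPM in Thra1PV/+, with a log2 fold change of 0.45 (edgeR adjusted p = 0.373), while Rxrb and Rara had 0.06 and 0.02. Of the enzymes between retinol and retinaldehyde, 1 of 9 was called, Dhrs3, and the main retinol dehydrogenase Rdh10 had a log2 fold change of -0.07 (edgeR adjusted p = 0.981), Rdh11 -0.17 and Adh1 0.37. Of the genes of retinol supply, 7 of 8 were tested and none was called by edgeR, 1 of them having an unadjusted p under 0.05. None of the 2 tested genes of retinoic acid binding and the 1 tested gene of its breakdown was called either.

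At an unadjusted p under 0.05, 5 of the 22 passed by edgeR, against 9.77% of all tested genes, namely Dhrs3, Rxra and 3 genes named here after their values were seen. The cellular retinol binding protein Rbp2 stood at 0.0191 to 1.43 CPM in WT and 1.23 to 8.40 CPM in Thra1PV/+ (log2 fold change 3.61, standard error 1.15, edgeR adjusted p = 0.344), and was called by DESeq2, by limma voom, and by edgeR without WT library 3 (adjusted p = 0.0714). The alcohol dehydrogenase Adh7 had a log2 fold change of 1.68 (edgeR adjusted p = 0.491) and the retinol dehydrogenase Rdh16 of -1.39 (edgeR adjusted p = 0.388).

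**Figure D5:**
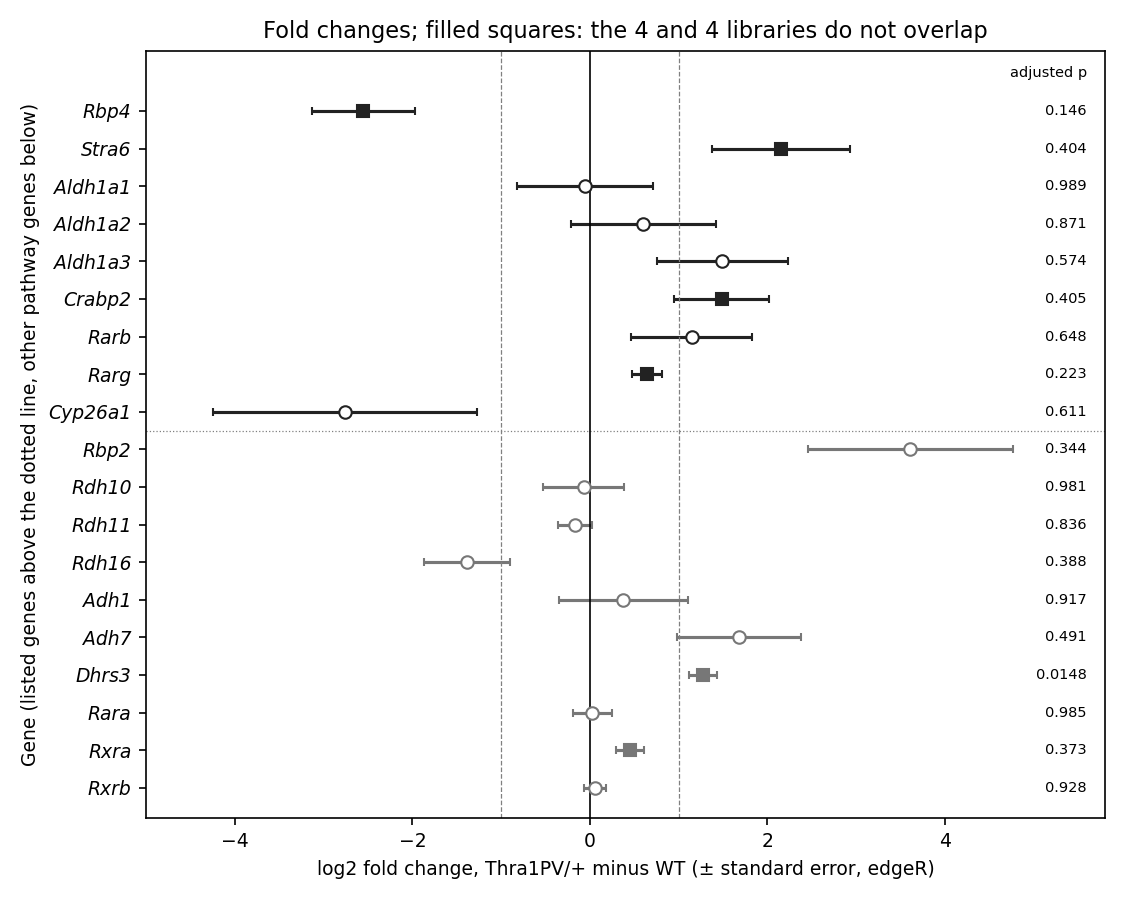
Log2 fold change, Thra1PV/+ minus WT, with its standard error from edgeR, for the 9 retinoid genes (black, above the dotted line) and 10 other pathway genes (grey), with adjusted p at the right. Filled squares mark the 6 genes whose 4 mutant and 4 WT libraries did not overlap, and dashed lines mark 2-fold differences. Dhrs3 alone is called.

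Genes known to be induced by retinoic acid were looked at as a readout of response. Besides the 4 of the 9 genes that are among them, 9 such genes were listed and 7 were tested. Of the 7, edgeR called 1, Dhrs3, against 0.990% of all tested genes, and their median log2 fold change was -0.0011. Tgm2, a transglutaminase induced by retinoic acid in many cells, stood at 439 to 1911 CPM in WT and 678 to 1641 CPM in Thra1PV/+, with a log2 fold change of -0.05 (edgeR adjusted p = 0.986). Rarres2, which encodes chemerin and is induced by retinoids in skin, had -0.48 (edgeR adjusted p = 0.742). Both overlapped between genotypes.

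Of 6 genes of squamous differentiation that retinoids are known to repress in keratinocytes, 5 were tested, with a median log2 fold change of 1.83. Of the 5, edgeR called 1, against 0.990% of all tested genes. Ivl, which encodes the cornified envelope protein involucrin, rose from 0 to 0.0419 CPM in WT, at most 2 counts, to 7.93, 18.1, 13.6 and 11.9 CPM in Thra1PV/+ (edgeR adjusted p = 0.00143). Tgm1, the transglutaminase that crosslinks this envelope, stood at 0.397 to 2.67 CPM in WT and 6.16 to 54.7 CPM in Thra1PV/+ without overlap, with a log2 fold change of 3.78 (edgeR adjusted p = 0.184). The suprabasal keratins had log2 fold changes of 1.83 for Krt1 (edgeR adjusted p = 0.303) and 0.86 for Krt10 (edgeR adjusted p = 0.564). DESeq2, which called 3.58% of all its genes, also called Tgm1 (adjusted p = 0.000245) and Krt1 (adjusted p = 0.0191), and limma voom also called Krt1 (adjusted p = 0.0667). The last of the 5, Lor, which encodes the envelope protein loricrin and is named here after its values were seen, had a lower mean in Thra1PV/+, at 1.02 ± 0.329 CPM against 1.69 ± 0.926 CPM in WT, and overlapped between genotypes. These genes are also general products of squamous epithelium, whose markers were higher in the same libraries, so a retinoid response and the presence of squamous cells cannot be told apart here.

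For the 3 retinoid genes with the smallest p, the genes with the most similar pattern were found among the 12132 tested genes whose mean log2 CPM reached 2, by the root-mean-square difference of log2 CPM standardized per gene over the 8 libraries. For Rbp4 they were Bend5, Ndufa1 and Dpep1, at 0.1998, 0.213 and 0.257 standard deviations, of which edgeR, DESeq2 and limma voom called Dpep1 (log2 fold change -3.77, edgeR adjusted p = 0.0725). For Rarg they were Rapgefl1, Ephb6 and Tmprss13, at 0.187, 0.206 and 0.231, of which edgeR called Ephb6 (log2 fold change 1.18, adjusted p = 0.0337), and DESeq2 and limma voom called all 3. For Stra6 they were Prr5l, Mthfd1l and Tra2b, at 0.227, 0.242 and 0.265, of which DESeq2 but not edgeR called Prr5l. Over all genes, edgeR called 0.990% of those it tested and DESeq2 3.58%. The similar genes were chosen for their likeness to genes that already separated the genotypes in these libraries, so their calls are not separate evidence. Both edgeR calls depend on the libraries. With 1 library left out, Dpep1 was called only without WT library 2, at adjusted p of 0.0425 to 0.211 over the 8 fits, and Ephb6 was not called without Thra1PV/+ library 2, 3 or 4 or WT library 4, at 0.0102 to 0.129.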

How the data were processed

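RNA-seq of laser-captured endometrium was analysed in 8 libraries, 4 WT and 4 Thra1PV/+. The authors prepared Illumina Stranded mRNA libraries for paired-end sequencing, trimmed reads with Trimmomatic and quantified them with salmon for mm10, and the salmon version and annotation are not given in the sources used here. The authors deposited estimated counts per gene, not normalized, and TPM values whose sorted values differed by at most 0.291 TPM between libraries at any rank, the form quantile normalization gives. The TPM table held 1 further column of negative values and division errors, which was not used.

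The 9 genes, the lists and the tests were chosen with earlier results of these data known. The estimated counts were rounded and fitted in edgeR 4.0.16 (R 4.3.3) with filterByExpr (minimum count 10, minimum total 15), TMM and the quasi-likelihood test with genotype as the only term. P-values were adjusted by Benjamini-Hochberg over the 18174 tested genes. Calls needed at least a 2-fold difference and an adjusted p no greater than 0.1, following the study's methods. Each standard error was obtained by dividing the log2 fold change by the square root of F. Single values and shares used exact two-sided permutation tests, with 3 shares adjusted per family. Positions are from GENCODE M21, which matched 16271 tested identifiers with their version, and promoters from RefSeq. Printed identifiers are those of the counts, and for Rbp4, Aldh1a1, Rarg and Cyp26a1 their version differed from that of M21. Named pathway and response genes were those called or without overlap and up to 8 of the highest mean CPM and of the repressed list the 4 with the smallest p. Not all of the named genes are reported here.

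Alternatives were DESeq2 1.42.0, limma 3.58.1 (voom with sample quality weights, and log2 of TPM plus 1 or 0.1 for genes with a mean TPM of at least 1), robust dispersion, DESeq2 size factors, upper quartile and library size scaling, filters that asked for 1 count in any library or 10 in every library, the replicate number as a block, other thresholds, counts of Aldh1a7 added to Aldh1a1, CPM per kilobase of exon for shares, and each library left out. After the data were seen, a fit without both library 1s was added.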

Additional observations from a re-analysis of the deposited data

Results flagged for a closer look

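In Thra1PV/+ library 1, Stra6 stood at 240.5 CPM against 73.2 to 85.5 CPM in the other 3 mutant libraries. On the scale of log2 CPM, the gap took 0.870 of the range of the 4, above Dixon's 95% critical value. The retinaldehyde reductase Rdh11 was low in Thra1PV/+ library 2, at 13.3 CPM against 21.5 to 23.0 CPM, with a gap of 0.882 of the range of log2 CPM. These were 2 of 76 groups of 4 libraries examined on log2 CPM, where chance gives about 3.8, or 1 in 20. Thra1PV/+ library 1 was also the mutant library with the most stromal marker signal and the most Aldh1a2.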

How the results depend on the processing

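The call of 0 retinoid genes by edgeR became 2 with DESeq2 (Rbp4, adjusted p = 0.000695, and Stra6, adjusted p = 0.0792), 2 with limma voom (Rbp4, adjusted p = 0.0878, and Crabp2, adjusted p = 0.0744) and 1 with the replicate block (Rbp4, adjusted p = 0.0893), and 0 to 1 with 1 library left out. Rarg passed the p-value part alone with DESeq2 and limma voom (adjusted p = 0.0355 and 0.0424). In all 20 alternatives Rbp4 stayed lower (log2 fold change -2.82 to -1.99), and Stra6 (1.36 to 2.54), Crabp2 (1.21 to 2.04) and Rarg (0.57 to 0.82) stayed higher. Of the further pathway genes, 1 call became 2 with DESeq2 and 2 with limma voom, Dhrs3 and Rbp2 in both, and 1 to 2 with 1 library left out. The 180 calls over all genes became 791 with DESeq2, 311 with limma voom, 81 with 10 counts asked of every library, 82 with the replicate block and 119 at an adjusted p no greater than 0.05, and 81 (without Thra1PV/+ library 3) to 167 with 1 library left out. The cause of these shifts was not tested. Replicate numbers did not pair the libraries: deviations of same-numbered libraries correlated at 0.269, -0.436, 0.340 and -0.159, and no mutant library but number 3 correlated best with its own number.

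Some log2 fold changes changed sign, and the cause was not tested. Aldh1a1 turned to 0.082 with limma voom, 0.36 with the replicate block, 0.47 and 0.55 on log2 TPM with 1 and 0.1 added, and 0.14 without both library 1s, with -0.43 to 0.29 over single libraries left out. Aldh1a2 turned, in that sequence, to -0.57, -0.15, -0.048, -0.064 and -0.65, with -0.87 to 0.96. Cyp26a1 turned to 0.036 with the replicate block, with -3.16 to 1.09. Rdh10 turned to 0.13 with limma voom, 0.048 with library size scaling and 0.097 without both library 1s, with -0.42 to 0.28. Rara turned to -0.013 with limma voom, with -0.060 to 0.19. Tgm2 turned to 0.087 with limma voom, 0.0094 with upper quartile and 0.068 with library size scaling, 0.050 with the replicate block, 0.16 and 0.16 on log2 TPM, and 0.0026 without both library 1s, with -0.31 to 0.34. Single libraries left out also spanned 0 for Aldh1a7 (-0.076 to 0.75) and Rarres2 (-0.66 to 0.0086). The difference in share, Thra1PV/+ minus WT, ran from -3.05 to 15.6 percentage points for Aldh1a1, -22.4 to -2.49 for Aldh1a2, 1.37 to 6.83 for Aldh1a3, -12.1 to -6.07 for Rara, 0.807 to 4.12 for Rarb and 4.19 to 10.7 for Rarg. Per kilobase of exon, the share of Rara differed at an exact permutation p of 0.0286, adjusted 0.0857. Genes that a filter removed have no value in that setting. With 4 libraries a genotype, Cyp26a1 at 3 to 29 counts in 7 libraries is the least certain of the values.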

Other observations

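Genes with the direct repeat spaced by 5 bases in a promoter window were looked at beyond Rarb and Cyp26a1. Of 31 such symbols 10 were tested, with a median log2 fold change of -0.13, against -0.05 over all tested genes. None of the 10 was called by limma voom or by edgeR, which called 0.990% of all tested genes. DESeq2 called Prss27 and Ppbp, 2 of the 8 it tested, against 3.58% of all its genes. By edgeR, 3 of the 10 had an unadjusted p under 0.05, against 9.77% of all tested genes. These 3 are named here after their values were seen. The serine protease Prss27 had no overlap between genotypes, at 0 to 1.21 CPM in WT and 5.31 to 159 CPM in Thra1PV/+ libraries, while 6.04% of all genes had none. The chemokine Ppbp stood at 0.229 to 3.24 CPM in WT and at 0.683, 36.2, 52.3 and 170.1 CPM in Thra1PV/+ libraries 4, 3, 1 and 2. Syndig1 lay the other way, at 0.816 to 56.3 CPM in WT, with the highest value in library 1, and at 0.0203 to 2.24 CPM in Thra1PV/+, and the genotypes overlapped.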
